A study of Mus musculus with 12 samples.

Results

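MAP kinase phosphatases and Sprouty proteins are the brakes of MAP kinase signalling, and 9 of their genes were followed here: Dusp1, Dusp5, Dusp6, Dusp8, Dusp10, Dusp16, Spry1, Spry2 and Spry4. They were found by gene symbol among the 25124 entries of the expression table, and each matched 1 entry. The minimum level for testing, a mean log2 value of 4 over all libraries, was reached by 7 of the 9. Spry1 and Spry4 fell below it and were not tested with the others.

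The cells were MC3T3-E1, a mouse line of bone-forming precursors kept in culture, so all libraries come from a single cell line. The 12 polyA RNA libraries form 4 groups of 3: TNFa, BMP4, TNFa+BMP4 and untreated. Cells of every group spent 30 min in medium with 2.5% serum. TNFa at 10 ng/mL was given 30 min before the next step, BMP4 at 10 ng/mL was given for 3 h, TNFa+BMP4 cells received both in that order, and untreated cells received neither. The sample characteristics name 3 h for TNFa as well, so the labels do not settle how long TNFa was present. The TNFa titles also carry the word p65, which is not explained. The labels place replicate 1 of each group in batch 1 and replicates 2 and 3 in batch 2, and do not say what was shared within a batch. They do not state that replicates were separate cultures, and the p-values therefore reflect the variation among these libraries, which may be technical. RNA was taken from whole cultures, in which a change in the make-up of the cells and a change in RNA per cell cannot be told apart.

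The libraries held 13.7 to 15.5 M tags, apart from TNFa+BMP4 replicate 2 with 20.6 M. Among osteoblast markers, the mean log2 value over all libraries was 10.31 for Runx2, 17.26 for Col1a1, 17.49 for Col1a2 and 5.29 for Sp7. The matrix genes Sparc, Spp1 and Postn had 16.33, 12.54 and 9.97. The markers Alpl, Bglap and Ibsp stood at 0.35, -0.03 and -1.23. Sox9 and Col2a1, markers of chondrocytes, had 12.09 and 14.95. The chondrocyte markers Acan and Col9a1 were listed at 0 throughout. Of the 4 fat-cell markers, Adipoq and Plin1 were at 0, Fabp4 was at -1.97 and Cebpa at 7.34. Of the 5 leukocyte markers, Adgre1 was at 0, Ptprc at -1.97 and Cd68, the one above the minimum, at 4.49. Of the 3 endothelial markers, Kdr was at 0, Cdh5 at -2.21 and Pecam1 at 4.96. Of the 4 muscle markers, Acta1 had 4.25 and the others lay below the minimum.

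MAP kinases (ERK, JNK and p38) are switched on by phosphorylation of a threonine and a tyrosine in their activation loop. Dual-specificity phosphatases of the MAP kinase class remove both phosphates, and several are themselves induced by the kinases they switch off, which makes them feedback inhibitors. Sprouty proteins act further up, between receptor tyrosine kinases and Ras-driven ERK activation. TNFa activates JNK, p38 and NF-kB in many cells, and BMP4 signals through Smad proteins and also to MAP kinases; both shape osteoblast differentiation.

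After TNFa, Dusp10 and Dusp6 rose. After BMP4, Dusp1, Dusp6, Spry2 and Dusp8 rose, Dusp8 at the edge of the threshold. With TNFa+BMP4, Dusp5 joined these 5, and only Dusp16 of the tested genes did not pass. Differences were estimated with limma on the log2 scale, with a term for batch, and a gene was called when its p-value, adjusted by Benjamini-Hochberg over the 11765 tested genes, was below 0.05. TNFa against untreated called 2 of the 7 members, where 15.5% of all tested genes were called. BMP4 against untreated called 4 of 7, against a background of 12.2%. TNFa+BMP4 against untreated called 6 of 7, against 31.2%. All of these calls were increases. The median difference of the 7 members was 0.24 for TNFa, 0.30 for BMP4 and 0.52 for TNFa+BMP4, while that of all tested genes was -0.0090, -0.00010 and 0.00020. The 3 comparisons share the untreated libraries.

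**Figure D1:**
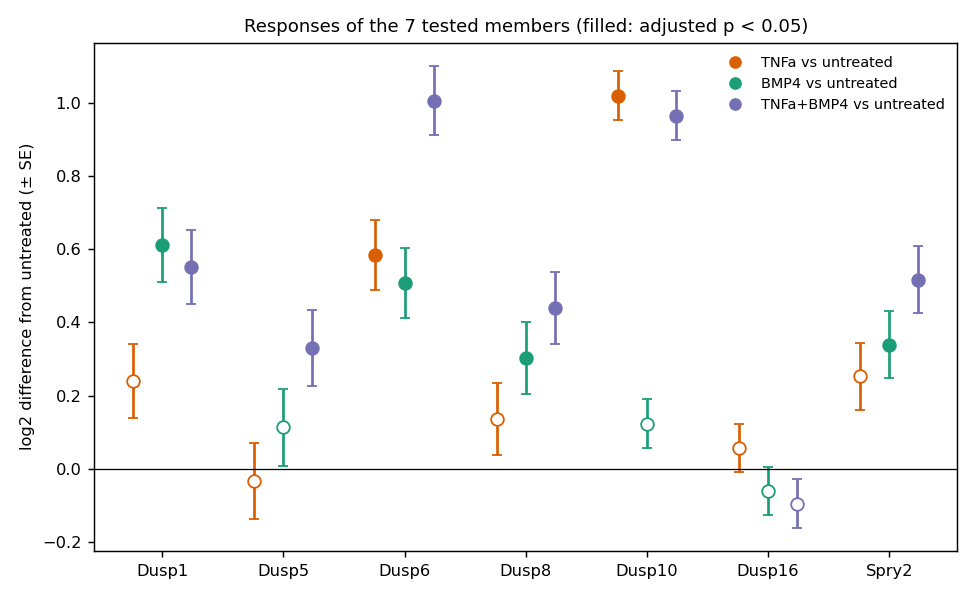
Difference from untreated on the log2 scale for the 7 tested members, in TNFa, BMP4 and TNFa+BMP4 cells (points, with the standard error as bars; filled points have an adjusted p below 0.05). Dusp10 stands at 1.02 in TNFa, 0.12 in BMP4 and 0.97 in TNFa+BMP4 cells, while Dusp6 stands at 0.58, 0.51 and 1.01.

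Levels were compared between genes after division by transcript length, as log2 value per kilobase. In untreated cells the order was Dusp10 at 7.60, Dusp1 at 7.21, Dusp6 at 7.16, Dusp8 at 6.95, Dusp16 at 6.68, Dusp5 at 5.67 and Spry2 at 5.61. Neighbours from Dusp1 to Dusp16 differed by less than the larger of their standard deviations, as did Dusp5 and Spry2. The top of the order also changed with batch. In untreated replicate 1, the log2 value of Dusp6 was 9.36 and that of Dusp10 9.10, with transcripts of 2792 and 2786 bases. Spry1 and Spry4 were far lower, with 1.11 and 0.33 as means per kilobase over all libraries.

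Batch moved members too, and all 7 tested ones passed the test of the batch term. The share of all tested genes that passed it was not tallied, so this count has no background to be read against. Batch 1 exceeded batch 2 by 1.39 ± 0.07 for Dusp6 and 0.55 ± 0.08 for Dusp5 (SE), more than any treatment difference fitted over both batches for those genes, although Dusp5 differences within batch 1 reached 0.65. Batch 1 lay below batch 2 for Dusp8 by -0.53 ± 0.07. For Dusp10 the batch difference was 0.13 ± 0.05 (adjusted p = 0.0323), against a TNFa difference of 1.02.

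**Figure D2:**
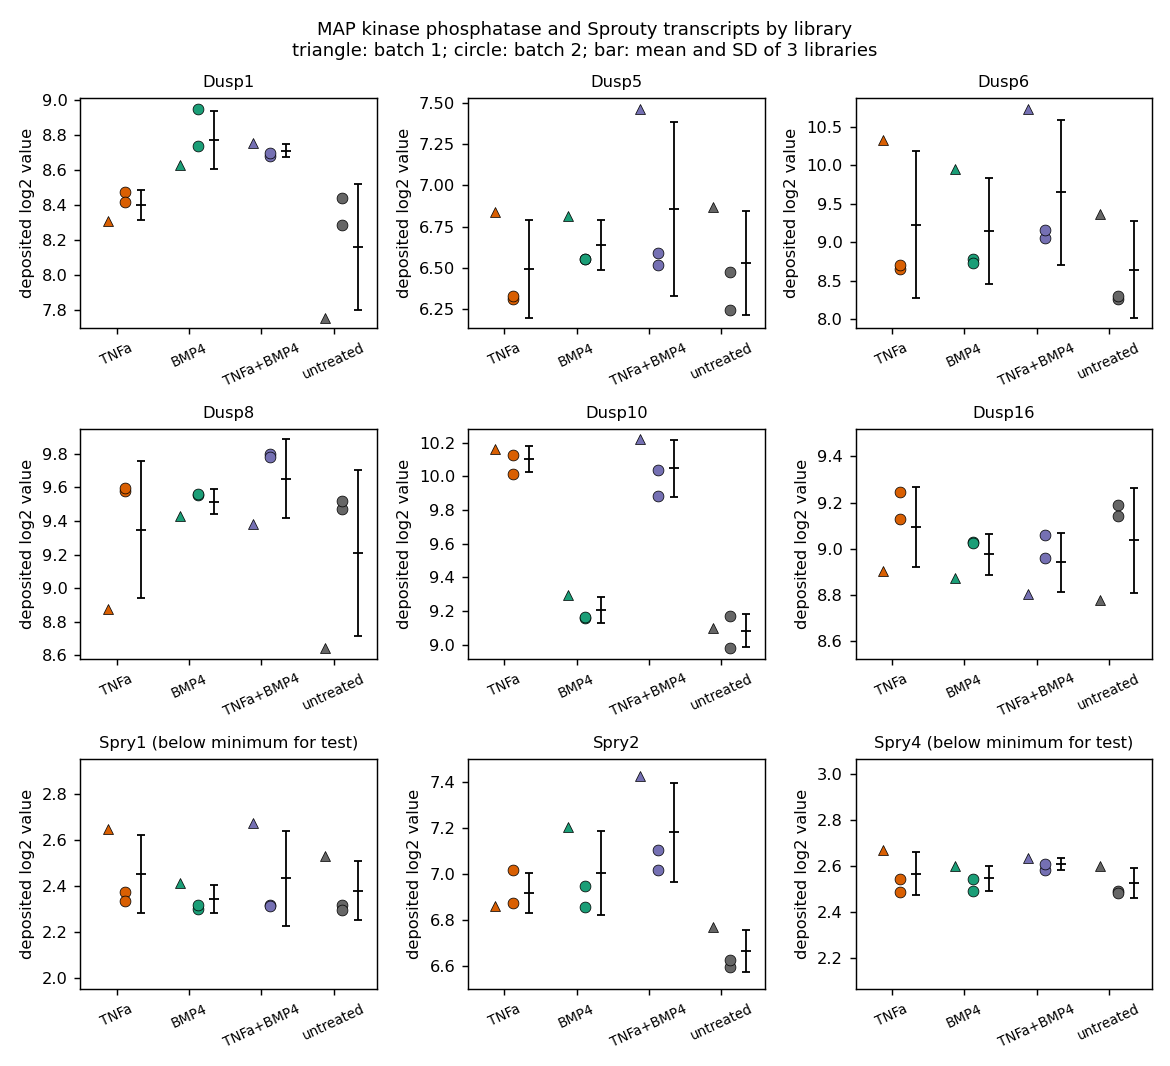
Deposited log2 value of each member in each of the 12 libraries (triangles, batch 1; circles, batch 2; bars, mean and standard deviation of 3 libraries; a panel per gene). The Dusp6 libraries of batch 1 lie above every Dusp6 library of batch 2, and the Dusp10 libraries given TNFa lie above all those without it.

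The inducible nuclear phosphatases are Dusp1 and Dusp5. Dusp1 (NM_013642, mm10 chromosome 17, 26505591 to 26508472, minus strand) is an immediate early gene whose product acts on p38, JNK and ERK. Its log2 values in replicates 1, 2 and 3 were 8.31, 8.47 and 8.42 in TNFa cells, 8.63, 8.95 and 8.74 in BMP4 cells, 8.76, 8.68 and 8.70 in TNFa+BMP4 cells, and 7.76, 8.29 and 8.44 in untreated cells. Every library given BMP4 lay above every library without it, and untreated replicate 1 was the lowest of the 12. BMP4 raised Dusp1 by 0.61 ± 0.10 (SE; 1.53-fold, adjusted p = 0.000293) and TNFa+BMP4 raised it by 0.55 ± 0.10 (adjusted p = 0.000261). TNFa alone gave 0.24 ± 0.10, which did not pass (adjusted p = 0.126). Leaving out 1 library moved this difference between 0.07 without untreated replicate 1 (adjusted p = 0.754) and 0.35 without untreated replicate 3 (adjusted p = 0.0284). Within batch 1 the differences from untreated were 0.55 for TNFa, 0.87 for BMP4 and 1.00 for TNFa+BMP4, and within batch 2 they were 0.08, 0.48 and 0.33.

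Dusp5 (NM_001085390, mm10 chromosome 19, 53529145 to 53541809, plus strand) encodes a nuclear phosphatase that acts on ERK. Its log2 values were 6.84, 6.31 and 6.33 in TNFa cells, 6.82, 6.55 and 6.55 in BMP4 cells, 7.47, 6.51 and 6.59 in TNFa+BMP4 cells, and 6.87, 6.24 and 6.47 in untreated cells. TNFa+BMP4 replicate 1 stood alone at the top, and over both batches the groups overlapped otherwise. Within batch 2, libraries given BMP4 lay above those without it, from 6.51 to 6.59 against 6.24 to 6.47. Within batch 1, BMP4 alone at 6.82 lay below untreated at 6.87. TNFa+BMP4 exceeded untreated by 0.33 ± 0.10 (adjusted p = 0.0202) and TNFa by 0.36 ± 0.10 (adjusted p = 0.0271). Without TNFa+BMP4 replicate 1 these fell to 0.17 (adjusted p = 0.242) and 0.20 (adjusted p = 0.268). The call against untreated was also lost without untreated replicate 1 (adjusted p = 0.0728) or 2 (adjusted p = 0.0940), and the call against TNFa without any 1 of the TNFa libraries (adjusted p from 0.0648 to 0.0968). Both calls were lost in batch 2 alone, at 0.19 (adjusted p = 0.165) and 0.23 (adjusted p = 0.148). With no filter on low values they were lost too (adjusted p = 0.0571 and 0.082). The difference of TNFa+BMP4 from untreated was 0.60 within batch 1 and 0.19 within batch 2. TNFa alone (-0.03 ± 0.10, adjusted p = 0.890) and BMP4 alone (0.11 ± 0.10, adjusted p = 0.551) did not pass. The authors' deposited table gives Dusp5 a log2 fold change of 0.57 for TNFa+BMP4 against untreated, with an adjusted p of 0.0600, and 0.64 against TNFa, with 0.0272. Dusp5 exons overlap the antisense gene AC137853.2, and whether counting used strand is not given in the sources used here, so reads of the 2 cannot be told apart.

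Dusp6 (NM_026268, mm10 chromosome 10, 99263231 to 99267489, plus strand) encodes a cytoplasmic phosphatase selective for ERK and is widely used as a readout of ERK activity. It was the one member called after TNFa and also after BMP4. Its log2 values in replicates 1, 2 and 3 were 10.33, 8.65 and 8.70 in TNFa cells, 9.94, 8.78 and 8.72 in BMP4 cells, 10.73, 9.05 and 9.16 in TNFa+BMP4 cells, and 9.36, 8.26 and 8.30 in untreated cells. Each batch put its treated libraries above its untreated ones, and TNFa+BMP4 libraries were the highest of their batch. The batch difference of 1.39 had an adjusted p of 1.15e-12, and was the largest of the 7 tested members.

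With batch in the model, TNFa raised Dusp6 by 0.58 ± 0.10 (SE; adjusted p = 0.000117), BMP4 by 0.51 ± 0.10 (adjusted p = 0.00103) and TNFa+BMP4 by 1.01 ± 0.10 (2.01-fold, adjusted p = 6.13e-08). TNFa+BMP4 also exceeded BMP4 by 0.50 ± 0.10 (adjusted p = 0.000676) and TNFa by 0.42 ± 0.10 (adjusted p = 0.00521). The last call was lost without TNFa+BMP4 replicate 1, at 0.32 (adjusted p = 0.0592). Within batch 1 the differences from untreated were 0.96 for TNFa, 0.58 for BMP4 and 1.37 for TNFa+BMP4, and within batch 2 they were 0.40, 0.47 and 0.83.

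The phosphatases that prefer JNK and p38 are Dusp8, Dusp10 and Dusp16. Dusp10 (NM_022019, mm10 chromosome 1, 184034381 to 184075636, plus strand) acts on JNK and p38 and is found in nucleus and cytoplasm. Its log2 values were 10.16, 10.01 and 10.13 in TNFa cells, 9.29, 9.16 and 9.16 in BMP4 cells, 10.22, 9.88 and 10.04 in TNFa+BMP4 cells, and 9.10, 9.17 and 8.98 in untreated cells. The 6 libraries given TNFa lay above the 6 without it with no overlap. TNFa raised Dusp10 by 1.02 ± 0.07 (2.03-fold, adjusted p = 2.97e-10) over untreated, and TNFa+BMP4 raised it by 0.84 ± 0.07 over BMP4 (adjusted p = 7.57e-09) and by 0.97 ± 0.07 over untreated (adjusted p = 6.90e-10). BMP4 alone gave 0.12 ± 0.07 (adjusted p = 0.261, 95% interval -0.017 to 0.26), and TNFa+BMP4 differed from TNFa by -0.05 ± 0.07 (adjusted p = 0.670, 95% interval -0.19 to 0.086). The TNFa difference was 1.07 within batch 1 and 1.00 within batch 2.

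Dusp8 (NM_008748, mm10 chromosome 7, 142079487 to 142095284, minus strand) had log2 values of 8.88, 9.58 and 9.59 in TNFa cells, 9.43, 9.55 and 9.56 in BMP4 cells, 9.38, 9.80 and 9.78 in TNFa+BMP4 cells, and 8.64, 9.47 and 9.52 in untreated cells. Batch 1 libraries were the lower ones in each group, and its untreated library was the lowest of all. TNFa+BMP4 raised Dusp8 by 0.44 ± 0.10 (adjusted p = 0.00171). BMP4 alone gave 0.30 ± 0.10 (adjusted p = 0.0493), which was 0.79 within batch 1 and 0.06 within batch 2. That call was lost without BMP4 replicate 1 (0.13, adjusted p = 0.385), untreated replicate 1 (0.16, adjusted p = 0.396) or untreated replicate 2 (0.35, adjusted p = 0.0563). It was also lost with no filter on low values (adjusted p = 0.151), after quantile scaling (0.0550), without the variance trend (0.0931) and in batch 2 alone (0.631). A fit of only BMP4 and untreated (adjusted p = 0.0603), a replicate block (0.0713) and a fit without the batch term (0.884) lost it too. The authors' deposited table gives 0.35 for BMP4 against untreated with an adjusted p of 0.480. TNFa alone gave 0.14 ± 0.10 (adjusted p = 0.413).

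Dusp16 (NM_130447, mm10 chromosome 6, 134715468 to 134792628, minus strand), a phosphatase acting mainly on JNK, was called in none of the 6 planned comparisons by limma, and its unadjusted p was below 0.05 in 1 of them. Its log2 values were 8.90, 9.25 and 9.13 in TNFa cells, 8.87, 9.03 and 9.02 in BMP4 cells, 8.80, 9.06 and 8.96 in TNFa+BMP4 cells, and 8.77, 9.19 and 9.14 in untreated cells. Over both batches the groups overlapped. Within batch 2, libraries given BMP4 lay below those without it, from 8.96 to 9.06 against 9.13 to 9.25. Within batch 1 they did not, and untreated at 8.77 was the lowest. The differences from untreated were 0.06 for TNFa (95% interval -0.080 to 0.20), -0.06 for BMP4 (-0.20 to 0.077) and -0.095 for TNFa+BMP4 (-0.23 to 0.043). The 1 comparison mentioned first was TNFa+BMP4 against TNFa, with a difference of -0.15 (95% interval -0.29 to -0.015). That difference was -0.10 within batch 1 and -0.18 within batch 2.

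Spry2 (NM_011897, mm10 chromosome 14, 105891947 to 105896819, minus strand) was the one Sprouty gene above the minimum level. Its log2 values were 6.86, 7.02 and 6.87 in TNFa cells, 7.21, 6.95 and 6.85 in BMP4 cells, 7.42, 7.02 and 7.10 in TNFa+BMP4 cells, and 6.77, 6.60 and 6.63 in untreated cells. All 9 treated libraries lay above the 3 untreated ones. TNFa+BMP4 raised Spry2 by 0.52 ± 0.09 (adjusted p = 0.000177) and BMP4 raised it by 0.34 ± 0.09 (adjusted p = 0.0178). TNFa gave 0.25 ± 0.09, which did not pass (adjusted p = 0.0685). It was 0.17 without TNFa replicate 2 (adjusted p = 0.348) and 0.37 without TNFa replicate 1, where it passed (adjusted p = 0.0101). Within batch 1 it was 0.09 and within batch 2 it was 0.33. Of 9 alternatives that did not leave out a single library, it passed in 2. These were batch 2 alone (adjusted p = 0.0154) and a fit of only TNFa and untreated (adjusted p = 0.0378). The BMP4 call was lost without untreated replicate 1 (adjusted p = 0.0742), BMP4 replicate 1 (adjusted p = 0.0966) or BMP4 replicate 2 (adjusted p = 0.0521). In batch 2 alone it was lost as well, at 0.29 (adjusted p = 0.0519). In the authors' deposited table the log2 fold changes were 0.44 for TNFa (adjusted p = 0.205), 0.59 for BMP4 (adjusted p = 0.0702) and 0.86 for TNFa+BMP4 (adjusted p = 0.000269).

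The stretch just upstream of the transcription start is shown for the 5 phosphatase genes that were called in a comparison with untreated cells, so that their letters can be set beside their values. Sequences are from RefSeq on GRCm38.p6, written 5′ to 3′ on the gene's strand. Capitals mark only the motif chosen for display in that gene. Other searched motifs stand in lower case, namely GGCGCC in the Dusp1 stretch and CGTCA, which is TGACG on the other strand, in the Dusp5 stretch. Positions are chr17:26508578-26508645 for Dusp1 (minus strand), chr7:142095310-142095421 for Dusp8 (minus strand), chr19:53529033-53529112 for Dusp5, chr10:99263047-99263115 for Dusp6 and chr1:184034281-184034380 for Dusp10 (each plus strand).
Dusp1: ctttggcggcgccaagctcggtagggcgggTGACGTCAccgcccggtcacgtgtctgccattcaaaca
Dusp8: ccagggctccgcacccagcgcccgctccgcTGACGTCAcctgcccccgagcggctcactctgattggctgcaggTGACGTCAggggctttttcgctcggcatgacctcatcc
Dusp5: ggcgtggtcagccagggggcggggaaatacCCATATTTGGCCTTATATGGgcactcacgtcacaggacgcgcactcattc
Dusp6: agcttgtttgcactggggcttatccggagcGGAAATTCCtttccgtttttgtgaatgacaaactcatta
Dusp10: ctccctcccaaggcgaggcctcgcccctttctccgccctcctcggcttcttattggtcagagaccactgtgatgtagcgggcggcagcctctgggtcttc

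Windows from 250 bases before to 50 bases after the start were searched on both strands in 8 members and in all 32851 RefSeq windows of that length. The cyclic AMP response element TGACGTCA, bound by CREB and ATF factors, occurred once for Dusp1 and at 2 places for Dusp8. It occurred in 1.79% of all windows, and at 2 or more places in 0.0396%. The CArG box, bound by serum response factor, occurred at 2 adjoining places for Dusp5, with 1.63% of all windows holding one and 0.0183% holding 2 or more. GGAATTTCC, a form of the NF-kB site, occurred once for Dusp6, where it reads GGAAATTCC on the printed strand, and in 0.317% of all windows. The other NF-kB form GGGACTTTC (0.353% of windows), the AP-1 site TGANTCA (7.81%), the Smad palindrome GTCTAGAC (0.213%) and the ETS site CCGGAAG (8.86%) were in the windows of none of the 8, which says only that these letters are not there. The shorter TGACG, which lies within TGACGTCA on both strands, was in 4 of the 8 and in 20.8% of all windows. GGCGCC, a GC-rich Smad motif, was in 2 of the 8, Dusp1 and Dusp5, and in 11.9%. These matches describe letters and are not measured binding.

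Adding TNFa to BMP4 was tested by TNFa+BMP4 against BMP4. It called 2 of the 7 members, Dusp10 and Dusp6 with the values above, where 16.2% of all tested genes were called. Of the others, Dusp5 gave 0.22 (adjusted p = 0.183), Spry2 0.18 (adjusted p = 0.214) and Dusp8 0.14 (adjusted p = 0.402). With 1 library left out the Dusp8 difference lay between 0.07 without BMP4 replicate 2 (adjusted p = 0.774) and 0.31 without BMP4 replicate 1, where it passed (adjusted p = 0.0110). It was -0.05 within batch 1 and 0.23 within batch 2, and a fit of batch 2 alone called it (adjusted p = 0.00734). Dusp1, which rose with BMP4, gave -0.06 (adjusted p = 0.757). Adding BMP4 to TNFa, tested by TNFa+BMP4 against TNFa, called Dusp6 and Dusp5, again 2 of 7, where 11.7% of all tested genes were called. Dusp1 at 0.31 and Dusp8 at 0.30 each had an adjusted p of 0.0501, just outside the threshold, and Spry2 at 0.26 had 0.0659. With 1 library left out, Spry2 lay between 0.14 without TNFa replicate 1 (adjusted p = 0.415) and 0.35 without TNFa replicate 2, where it passed (adjusted p = 0.0305), and in batch 2 alone it was 0.11 (adjusted p = 0.532). Dusp1 lay between 0.18 without TNFa+BMP4 replicate 1 (adjusted p = 0.350) and 0.37 without TNFa+BMP4 replicate 2 (adjusted p = 0.0511), and Dusp8 between 0.22 and 0.34. In a fit of these 2 groups alone Dusp1 (adjusted p = 0.00315) and Dusp8 (adjusted p = 0.00183) passed. In batch 2 alone Dusp8 passed at 0.20 (adjusted p = 0.0286) and Dusp1 at 0.24 did not (adjusted p = 0.0528). In the authors' deposited table Dusp1 and Dusp8 had log2 fold changes of 0.38 and 0.34 in this comparison, with adjusted p-values of 0.0124 and 0.00424.

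Whether the combined response departed from the sum of the single ones was tested with the interaction term of limma. It called 0 of the 7 members, and 0.017% of all tested genes, and 1 member, Dusp1, had an unadjusted p under 0.05. For Dusp1 the single differences sum to 0.85 and the combined difference was 0.55, a departure of -0.30 ± 0.14 (adjusted p = 0.993). For Dusp6 the sum was 1.09 and the combined difference 1.01, a departure of -0.09 ± 0.13, with a 95% interval of -0.37 to 0.19. Dusp10 departed by -0.18 ± 0.10 (95% interval -0.38 to 0.021) and Dusp5 by 0.25 ± 0.15 (-0.057 to 0.56). Dusp8, Dusp16 and Spry2 departed by 0.00070, -0.09 and -0.07. Intervals of this width leave room for departures as large as several of the responses themselves.

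**Figure D3:**
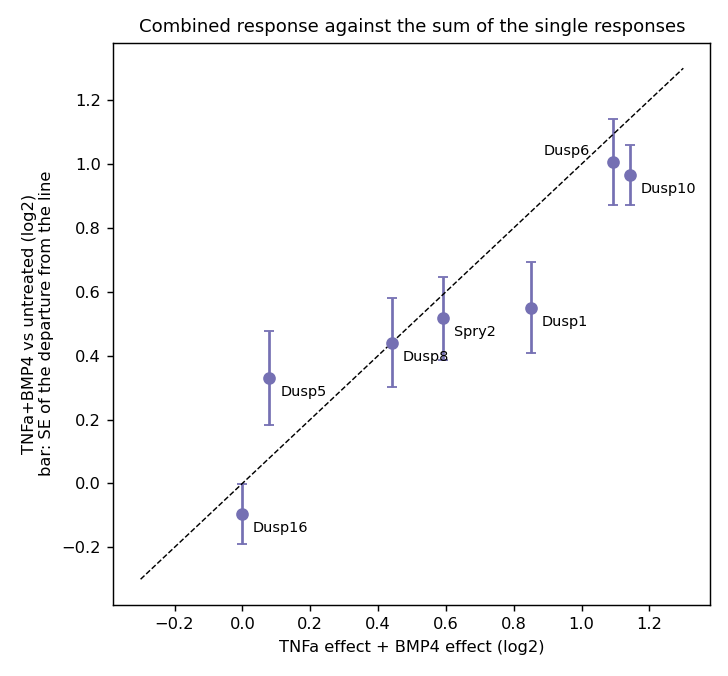
Difference of TNFa+BMP4 from untreated (vertical axis, log2) against the sum of the TNFa and BMP4 differences (horizontal axis, log2) for the 7 tested members; bars are the standard error of the departure from the dashed line of equality, and both axes share the untreated libraries. Dusp1 lies furthest below the line, by 0.30, and Dusp5 furthest above it, by 0.25.

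The single treatments were set against each other in a comparison added after the data were seen. TNFa against BMP4 called 2 of the 7 members, where 21.6% of all tested genes were called. Dusp10 was higher in TNFa than in BMP4 cells by 0.90 ± 0.07 (adjusted p = 1.34e-09), and Dusp1 was lower, with a difference of -0.37 ± 0.10 (adjusted p = 0.00997). The Dusp1 call was lost without BMP4 replicate 2, at -0.32 (adjusted p = 0.0623). Dusp6 differed by 0.08 with a 95% interval of -0.12 to 0.27, Spry2 by -0.09 (-0.28 to 0.10) and Dusp8 by -0.17 (-0.37 to 0.040).

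Responses were also compared between batches with treatment-by-batch terms, added after the data were seen. Batch 1 has 1 library per group, so its spread is assumed to be that of batch 2, with 4 residual degrees of freedom. All the terms share untreated replicate 1 as their batch 1 reference, so they are not separate observations. That library was the lowest of all for Dusp1 (7.76) and Dusp8 (8.64). The TNFa difference was larger in batch 1 for Dusp6, by 0.57 (adjusted p = 0.00798), 1 of 7 members where 1.05% of all tested genes were called. The BMP4 difference was larger in batch 1 for Dusp8, by 0.73 (adjusted p = 4.07e-05), 1 of 7 where 4.68% were called. The TNFa+BMP4 difference was larger in batch 1 for Dusp1 by 0.67 (adjusted p = 0.00231), Dusp6 by 0.54 (adjusted p = 0.00337) and Dusp8 by 0.45 (adjusted p = 0.0103), 3 of 7 where 5.78% were called. The directions of the called responses were the same in both batches.

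**Figure D4:**
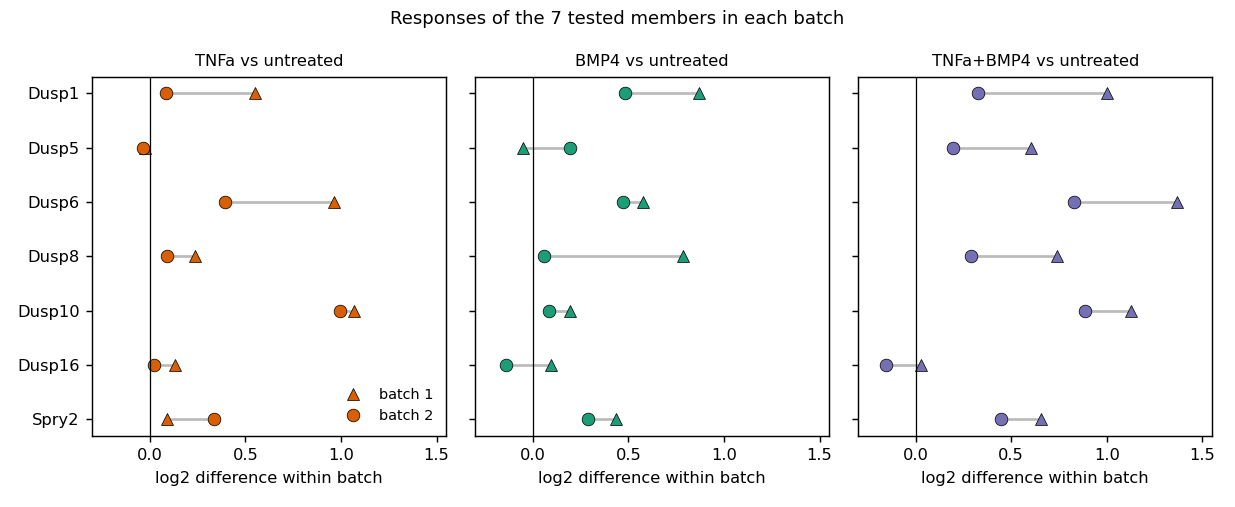
Log2 difference from untreated of the 7 tested members within batch 1 (triangles, 1 library per group) and batch 2 (circles, means of 2 libraries per group), in a panel each for TNFa, BMP4 and TNFa+BMP4. Dusp10 after TNFa stands at 1.07 and 1.00, while Dusp8 after BMP4 stands at 0.79 in batch 1 and 0.06 in batch 2.

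Spry1 (NM_001305440, mm10 chromosome 3, 37639947 to 37644599, plus strand) ranged from 2.34 to 2.65 on the log2 scale in TNFa cells, 2.30 to 2.41 in BMP4 cells, 2.31 to 2.67 in TNFa+BMP4 cells and 2.29 to 2.53 in untreated cells. Its exons overlap Gm42922 on the opposite strand. Spry4 (NM_011898, mm10 chromosome 18, 38586247 to 38601347, minus strand) ranged from 2.48 to 2.67 in TNFa cells, 2.49 to 2.60 in BMP4 cells, 2.58 to 2.64 in TNFa+BMP4 cells and 2.48 to 2.60 in untreated cells. Groups overlapped for both genes. The authors' deposited table gives Spry4 a log2 fold change of 1.34 for TNFa+BMP4 against untreated with an adjusted p of 0.340, and Spry1 one of 1.00 with 0.634. The deposited log2 values differ far less than these fold changes, so differences of weakly expressed genes are compressed on that scale. For better expressed members the authors' fold changes were larger too, though by less. They were 1.20 against the 1.01 fitted here for Dusp6 with TNFa+BMP4, and 1.17 against 1.02 for Dusp10 with TNFa.

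The other genes of the pathway were described from 4 lists, by the counts called among tested genes, to be read against the 15.5% of all tested genes called with TNFa, 12.2% with BMP4 and 31.2% with TNFa+BMP4. Of 15 tested phosphatases and pathway inhibitors other than the members, TNFa raised 2, BMP4 raised 1 and lowered 2, and TNFa+BMP4 raised 2 and lowered 4, which is 13.3%, 20% and 40% of the list. Errfi1, an inhibitor of the EGF receptor, rose by 0.36 ± 0.12 with TNFa and 0.79 ± 0.12 with TNFa+BMP4. Spred2, which restrains Ras-driven ERK activation, rose by 0.28 ± 0.07 with TNFa. Dusp3, a small atypical phosphatase, fell by 0.55 ± 0.09 with BMP4, and Il17rd, an inhibitor of FGF receptor signalling, fell by 0.37 ± 0.07. The list medians were -0.036 for TNFa, -0.069 for BMP4 and 0.0022 for TNFa+BMP4.

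Of 25 tested MAP kinases and upstream kinases, TNFa raised 3, BMP4 raised 1 and lowered 1, and TNFa+BMP4 raised 5 and lowered 2. These are 12%, 8% and 28% of the list, each below the share of all tested genes. Mapk11, which encodes p38 beta, rose by 0.72 ± 0.07 with TNFa, and Map2k3, a kinase that activates p38, rose by 0.50 ± 0.07. Map3k8, which couples TNFa signalling to ERK, rose by 0.30 ± 0.09. Map3k5, a stress-activated kinase upstream of JNK and p38, rose by 0.47 ± 0.09 with BMP4. The list medians were 0.043 for TNFa, 0.017 for BMP4 and 0.061 for TNFa+BMP4.

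Of 19 receptors, adaptors and Ras proteins upstream of ERK, TNFa raised 2 and lowered 4, BMP4 raised 7 and lowered 1, and TNFa+BMP4 raised 4 and lowered 5, which is 31.6%, 42.1% and 47.4% of the list. Fgfr2, a receptor for fibroblast growth factors, fell by 0.82 ± 0.09 with TNFa and rose by 0.30 ± 0.09 with BMP4. Pdgfrb fell by 0.54 ± 0.06 with TNFa and rose by 0.36 ± 0.06 with BMP4, and Fgfr3 fell by 0.40 ± 0.11 with TNFa and rose by 1.08 ± 0.11 with BMP4. The list medians were -0.0052 for TNFa, 0.049 for BMP4 and -0.017 for TNFa+BMP4.

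Of 15 transcripts known to respond to ERK, TNFa raised 9 and lowered 2, BMP4 raised 6 and lowered 1, and TNFa+BMP4 raised 11 and lowered 2, which is 73.3%, 46.7% and 86.7% of the list. Fosl1, an AP-1 subunit, rose by 1.34 ± 0.11 with TNFa, and Phlda1 by 0.95 ± 0.08. Fos, another AP-1 subunit, rose by 0.75 ± 0.09 with BMP4, and Egr3, an immediate early transcription factor, by 0.55 ± 0.12. Ccnd1, which encodes cyclin D1, rose by 0.76 ± 0.06 with TNFa and fell by 0.21 with BMP4. The list medians were 0.38 for TNFa, 0.19 for BMP4 and 0.43 for TNFa+BMP4.

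**Figure D5:**
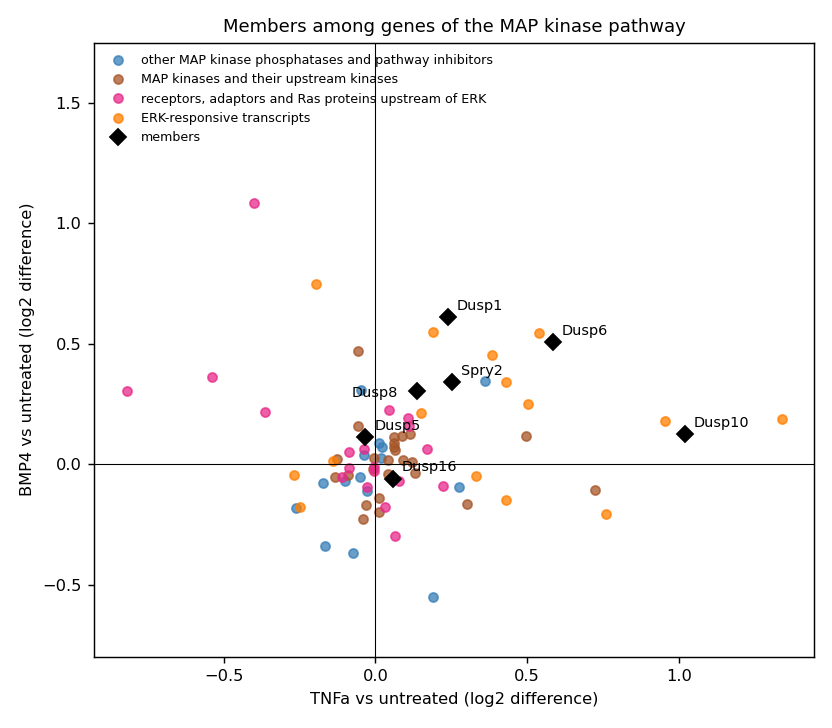
Log2 difference from untreated with TNFa (horizontal axis) and with BMP4 (vertical axis) for the 7 tested members (diamonds) and the tested genes of the 4 pathway lists (circles, a colour per list); both axes share the untreated libraries. Dusp10 lies to the right at 1.02 with 0.12, Dusp1 high at 0.61 with 0.24, and Fgfr3 high and to the left at 1.08 with -0.40.

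Likeness of pattern was measured by Pearson's r over the 12 libraries after each batch's mean was subtracted, as a description over libraries that share treatments. Among members the highest values were 0.844 for Dusp8 with Spry2, 0.797 for Dusp6 with Spry2 and 0.787 for Dusp1 with Dusp8. Dusp10 had 0.753 with Dusp6 and 0.236 with Dusp1, and Dusp16 had values from -0.586 to 0.0867 with the other members. Over all tested genes, Dusp10 was most like Prr13 at 0.993 and Nfkb2, an NF-kB subunit, at 0.99. Dusp6 was most like Timp3 at 0.975 and Ier3 at 0.973, and Dusp1 was most like Mga at 0.976 and Gfpt2 at 0.956. Spry2 was most like Tead4 at 0.982 and Gmppb at 0.949, and Dusp8 was most like Heg1 at 0.966. The 2 weakest matches were those of Dusp5, with Ssr2 at 0.936 and Ovca2 at 0.935, and of Dusp16, with Lct at 0.897 and Gnrh1 at 0.893. Each match was picked as the highest among all tested genes over 12 libraries, so high values come partly from that choice. Even Dusp16, called in no comparison, reached 0.897.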

How the data were processed

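Trim Galore, HISAT2, HOMER and the mm10 build are listed, without versions or roles, in the submitters' processing notes. HOMER counting covered the exons of 1 transcript per gene, and groups were compared with batch as a factor, per the file headers. The deposited table has 25124 entries, 7423 of them at 0 throughout. The authors deposited 12 columns of log2 values without batch adjustment, by a transformation not given in the sources used here, so differences are on that scale. The authors' log2 fold changes, p-values and transcript lengths are deposited beside them. The header swaps the batch numbers of the labels, whose numbers are used.

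Values were fitted with limma 3.58.1 (R 4.3.3): 4 groups, an additive batch term, moderated variance with trend, 7 residual degrees of freedom, mean log2 value of at least 4 (11765 genes), Benjamini-Hochberg adjustment. A planned count test was replaced because the file holds no counts. The fit was checked on simulated data. The members and lists were chosen with earlier results of these data known. Named genes were the members, up to 3 called genes per list and comparison with the largest change, and the 2 genes most like each member, of which 1 is not reported here. Alternatives are given at the end.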

Additional observations from a re-analysis of the deposited data

How the results depend on the processing

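The calls of Dusp6 and Dusp10 with TNFa, of Dusp1 and Dusp6 with BMP4, of Dusp1, Dusp6, Dusp8, Dusp10 and Spry2 with TNFa+BMP4, and of Dusp6 and Dusp10 in TNFa+BMP4 against BMP4 were kept in every fit that left out 1 library. The other member calls were not, as given above, except that of Dusp10 for TNFa against BMP4, which was kept. With 1 library left out, BMP4 against untreated called 756 to 1332 genes and 2 to 4 members, TNFa+BMP4 against TNFa 752 to 1066 genes and 0 to 2 members, TNFa against BMP4 1 to 2 members, and the interaction 0 to 7 genes.

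Without the batch term the calls fell to 383 genes and 1 member for TNFa, 114 and 0 for BMP4, 869 and 2 for TNFa+BMP4, 345 and 1 against BMP4, 105 and 0 against TNFa, 702 and 1 for TNFa against BMP4, and 0 genes for the interaction. Dusp6 was then called in no comparison, since the difference between batches adds to its spread. In batch 2 alone, BMP4 called 1264 genes and 2 members, and the interaction 15 genes. With no filter, TNFa+BMP4 against TNFa called 906 genes and 1 member, and the interaction 0. With a minimum of 6, TNFa+BMP4 against TNFa called 4 members, with Dusp1 (adjusted p = 0.0477) and Dusp8 (adjusted p = 0.049) just inside the threshold. With only the groups compared, the same comparison called 2096 genes and 4 members. The interaction called 1 gene after quantile scaling. With a replicate block it also called 1 gene, and BMP4 against untreated called 1329 genes and 3 members, Dusp8 being lost (adjusted p = 0.0713). Same-numbered libraries of batch 2 deviated together with correlations of 0.0199 to 0.164 over 6 pairs of groups. Values this low do not settle whether such libraries shared more than the batch, since differences between single libraries also hold noise.

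Differences that changed sign were not called in the first place. In batch 2 alone these were Dusp5 against BMP4 (-0.0011) and, for TNFa against BMP4, Dusp6 (-0.077), Dusp8 (0.028) and Spry2 (0.044). The Dusp8 interaction was -0.0087 after quantile scaling and -0.0045 after median centring. Leaving out 1 library gave -0.0093 to 0.22 (Dusp8), -0.00067 to 0.095 (Dusp16) and -0.088 to 0.036 (Dusp5) with TNFa, -0.058 to 0.011 for Dusp16 against BMP4, -0.11 to 0.011 for Dusp10 against TNFa, -0.19 to 0.050 (Dusp6), -0.081 to 0.18 (Dusp8) and -0.20 to 0.013 (Spry2) for the interaction, and -0.040 to 0.14 (Dusp6), -0.24 to 0.011 (Dusp8) and -0.17 to 0.034 (Spry2) for TNFa against BMP4. Of 770 values of members under alternatives, 693 kept direction and side of the threshold. Scaling moved the median of all genes by at most 0.0175. The number of replicates and the compression of low values limit what can be seen for Dusp5, Spry1, Spry2 and Spry4.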
